A study of Gallus gallus with 5 samples.

Results

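In the chick otic transcriptome 3 loci were followed, *Plekhs1* (listed as PLEKHS1, XLOC_013659, ENSGALG00000020679), *Odf2l* (ODF2L, XLOC_014692, ENSGALG00000006804) and *Calb2* (CALB2, XLOC_003053, ENSGALG00000026903). They were found by their gene symbol, and each symbol stood on 1 locus, so that 3 of 18365 loci are described. RNA came from Bovans Brown chick embryos without any treatment, with 1 library for each of 5 conditions. These were the posterior pre-placodal region (PPR) at Hamburger-Hamilton stage 6 (HH6), otic-epibranchial progenitors (OEPs) at 5-6ss (ss, somite stage), the thickened otic placode at 8-9ss, the invaginating otic placode at 11-12ss, and, for comparison, whole embryos of 3ss. For the otic libraries, ectoderm pooled from many embryos was dissected where *Pax2* is expressed, after mesoderm and endoderm had been peeled off.

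The 3 genes were chosen by their counts and fold changes in these same libraries, as late genes that are nearly absent from the whole embryo, and their levels are therefore a description. The counts did not bear out that name for each of them. *Plekhs1* had reached 90.4% of its highest normalized count at 5-6ss, the earliest otic stage, and *Calb2* stood at 36.8% of its highest value in the whole embryo. *Odf2l* was at 13.9% of its highest value at 5-6ss and at 94.4% at 8-9ss, and *Calb2* was highest at 11-12ss.

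The otic placode is a thickening of head ectoderm beside the hindbrain that folds inwards to make the inner ear, and it arises from progenitors shared with the epibranchial placodes. PLEKHS1 carries a pleckstrin homology domain, a fold that binds membrane phosphoinositides or proteins, and little is known of its role in the embryo. ODF2L is a relative of ODF2, a protein of the centriole appendages, and in mammalian cells a form of ODF2L sits at the centriole and basal body, from which a cilium grows. CALB2 encodes calretinin, a cytosolic calcium buffer with EF-hand domains, known from neurons of the sensory ganglia and from hair cells of the inner ear.

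Counts are reads per locus as deposited, and a normalized count is a count divided by the size factor of its library (median of ratios, set over all 5 libraries). RPKM, reads scaled by transcript length and mapped reads, is used to compare genes of different length. Total counts lay between 26858887 (5-6ss) and 136916870 (HH6), so 1 read was worth 1.81 normalized counts at 5-6ss and 0.345 at HH6. No condition has a replicate. Each interval is therefore a 95% counting interval (exact Poisson for a level, exact Clopper-Pearson for a ratio of counts), which leaves out the variation between embryos and PCR duplicates, and no p-value was computed. The summed CPM (counts scaled by the library total) of 8 otic placode markers went from 59.7 in the whole embryo and 107 at HH6 to 777, 1173 and 1504 (5-6ss, 8-9ss and 11-12ss). In bulk tissue, more cells that express a gene and more RNA per cell cannot be told apart.

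*Plekhs1* was the first of the genes to come near its highest level. It had 3 reads in the whole embryo, 101 at HH6, 312 at 5-6ss, 532 at 8-9ss and 466 at 11-12ss. Normalized counts were 2.96 in the whole embryo (0.610 to 8.65), 34.9 at HH6 (28.4 to 42.4), 566 at 5-6ss (505 to 632), 626 at 8-9ss (574 to 681) and 622 at 11-12ss (567 to 682). The otic stages form a plateau, with overlapping intervals, and both earlier libraries lie far below it.

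*Odf2l* came near its highest level later, and that level was higher. Its counts were 8 in the whole embryo, 25 at HH6, 143 at 5-6ss, 1498 at 8-9ss and 1397 at 11-12ss. As normalized counts these were 7.89 (3.41 to 15.6) in the whole embryo, 8.63 (5.59 to 12.7) at HH6, 259 (219 to 306) at 5-6ss, 1763 (1674 to 1854) at 8-9ss and 1866 (1770 to 1967) at 11-12ss. The whole embryo and HH6 cannot be separated at this depth, 5-6ss is intermediate, and the later placode libraries have overlapping intervals.

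*Calb2* had a course of its own. The libraries held 340 reads in the whole embryo, 464 at HH6, 84 at 5-6ss, 81 at 8-9ss and 682 at 11-12ss. Its normalized counts were 335 (301 to 373) in the whole embryo, 160 (146 to 175) at HH6, 152 (122 to 189) at 5-6ss, 95.3 (75.7 to 118) at 8-9ss and 911 (844 to 982) at 11-12ss. *Calb2* was thus present from the start, lowest at 8-9ss and highest at 11-12ss, and the whole embryo ranked second.

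**Figure D1:**
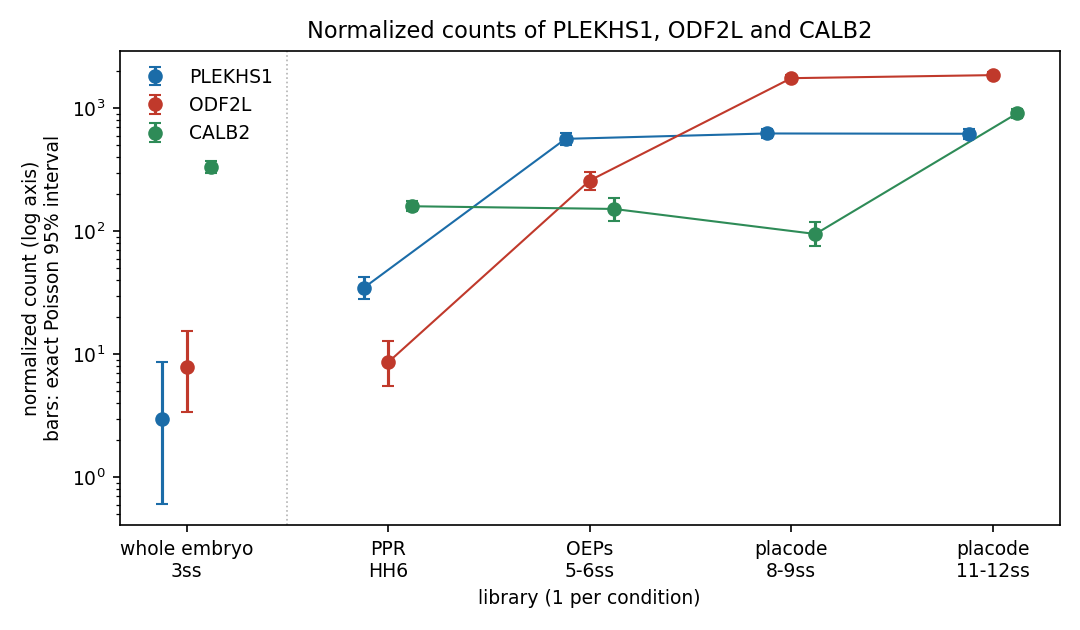
Normalized counts (log axis) of the 3 genes in each of the 5 libraries; points are single libraries, bars the exact Poisson 95% interval, and lines join the stages of the placode lineage. PLEKHS1 is level from 5-6ss (566) to 11-12ss (622), ODF2L reaches 1763 at 8-9ss, and CALB2 climbs from 95.3 to 911 at the last step.

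To ask at which step each gene came up, consecutive stages were compared by counts divided by the size factors of the libraries in the pair. A locus was called higher or lower at a fold change over 1.5 if, in the higher library of the pair, the normalized count exceeded 300 and the RPKM exceeded 4, the levels set in the study. One of the 3 genes was called higher at each step, and none was called lower. A different gene was called at each step, but *Odf2l* also rose at the first step, where its RPKM was under the level for a call.

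From the PPR at HH6 to OEPs at 5-6ss *Plekhs1* rose 16.1-fold (12.8 to 20.4). Among 9253 expressed loci, 18.0% were called higher at this step and 18.9% lower, and *Plekhs1* ranked 122 from the top. *Odf2l* was 29.9-fold higher at 5-6ss (19.4 to 47.7), a larger ratio than that of *Plekhs1*, but was not called, since its RPKM of 3.70 lay under 4. *Calb2* differed by 0.945-fold (0.740 to 1.19), an interval that holds no change. Of the range that *Plekhs1* covered from HH6 to 11-12ss, 89.8% fell on this step, compared with 13.5% for *Odf2l*.

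From 5-6ss to 8-9ss *Odf2l* rose 6.86-fold (5.77 to 8.20), the ninth largest value of 8281 expressed loci, of which 3.89% were called higher and 4.99% lower. This step held 80.9% of its range. *Plekhs1* stood at 1.12-fold (0.969 to 1.29). *Calb2* was 1.58-fold lower at 8-9ss (1.15 to 2.18), on 81 reads against 84 in the smaller library. It was not called, because its RPKM was under 4 at both stages (1.28 and 0.897).

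From 8-9ss to 11-12ss *Calb2* rose 9.49-fold (7.53 to 12.1), the sixth largest value of 8529 expressed loci, of which 6.54% were called higher and 3.63% lower. *Odf2l* was at 1.05-fold (0.976 to 1.13) and *Plekhs1* at 0.987-fold (0.870 to 1.12). Both intervals lie within 1.5-fold, so that a change past the threshold is outside the counting error for these genes at this step.

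Over the whole placode interval (11-12ss over 5-6ss), 2 of the 3 genes were called higher and 0 lower, against 7.97% and 7.32% of 8373 expressed loci. *Odf2l* was 7.21-fold higher (6.06 to 8.62) and *Calb2* 5.99-fold (4.77 to 7.61). *Plekhs1* differed by 1.10-fold (0.953 to 1.28). Of these genes, *Odf2l* and *Calb2* thus ended with overlapping fold changes that they had reached at different steps.

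Comparison with the whole embryo at 3ss asks which transcripts are enriched in otic tissue. The same whole embryo library enters all 4 comparisons. It is also older than the PPR at HH6 and younger than the libraries of 5-6ss, 8-9ss and 11-12ss, so tissue and stage cannot be told apart. At HH6 0 of the 3 genes were called higher (15.7% of expressed loci were), at 5-6ss 1 was (13.9%), at 8-9ss 2 (15.0%) and at 11-12ss all 3 (14.7%). None was called lower, against 12.9%, 10.2%, 13.1% and 12.8% of expressed loci at these stages.

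*Plekhs1* was 190-fold above the whole embryo in OEPs at 5-6ss (64.5 to 927), and in the placode 211-fold above it at 8-9ss (71.7 to 1025), with a ratio of 207 at 11-12ss (70.5 to 1008). These ratios rest on 3 reads in the whole embryo, and their intervals overlap throughout. By RPKM the ratios of *Plekhs1* were smaller, 95.3, 99.1 and 97.2 in the same order, though within these intervals. *Odf2l* was at 32.7-fold at 5-6ss (16.2 to 77.2, not called), and called with 223-fold at 8-9ss (113 to 516) and with 233-fold at 11-12ss (118 to 541), on 8 reads. At HH6 *Plekhs1* already stood at 11.8-fold (3.93 to 58.2), whereas *Odf2l* stood at 1.10-fold (0.479 to 2.81). Neither value at HH6 was called, since both RPKM values were under 4.

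*Calb2* went from below the whole embryo to above it. It was 2.09-fold lower than there at HH6 (1.81 to 2.41), 2.21-fold lower at 5-6ss (1.74 to 2.84) and 3.53-fold lower at 8-9ss (2.76 to 4.56), and none of these was called, since the whole embryo had an RPKM of 3.40. At 11-12ss *Calb2* was called, 2.68-fold higher (2.35 to 3.06). Its ratio is far smaller than those of *Plekhs1* and *Odf2l* in the same library, and the intervals do not overlap.

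**Figure D2:**
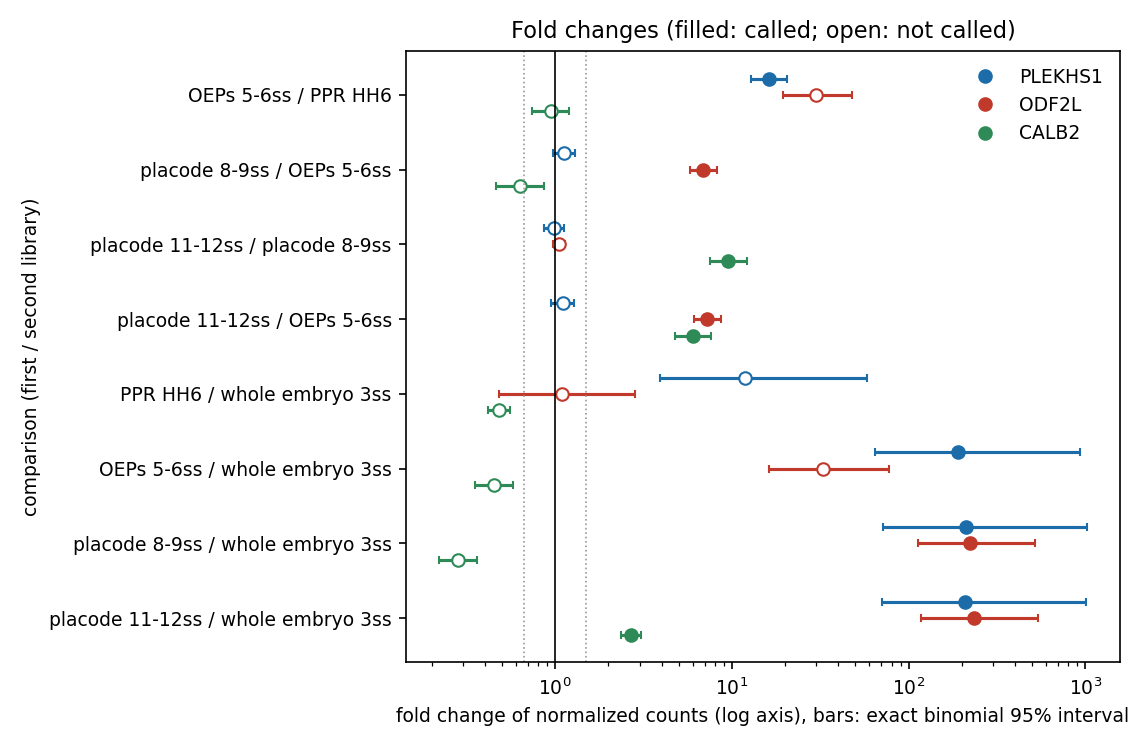
Fold changes of the 3 genes in 8 comparisons (log axis, first library over second), with exact binomial 95% intervals; filled points were called, open points were not, and dotted lines mark 1.5-fold in either direction. One gene is called at each consecutive step, PLEKHS1 (16.1-fold), ODF2L (6.86-fold) and CALB2 (9.49-fold) in turn.

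Per unit of length the order of the genes turned over with stage. In RPKM, *Calb2* was the highest of the 3 in the whole embryo (3.40, against 0.0495 for *Plekhs1* and 0.0458 for *Odf2l*) and at HH6 (1.43, against 0.273 and 0.0432). At 5-6ss *Plekhs1* led with 4.72, followed by *Odf2l* with 3.70 and *Calb2* with 1.28. At 8-9ss *Odf2l* led with 15.0, compared with 4.90 for *Plekhs1* and 0.897 for *Calb2*. At 11-12ss the values were 17.5 for *Odf2l*, 6.85 for *Calb2* and 4.81 for *Plekhs1*. None of the 3 was abundant. At 11-12ss 66.3% of all loci had a lower RPKM than *Odf2l*, 51.1% a lower one than *Calb2* and 46.7% a lower one than *Plekhs1*.

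For *Odf2l* counts and RPKM did not give the same size of change. From HH6 to 5-6ss its RPKM ratio was 85.7 where the counts gave 29.9, and from 5-6ss to 8-9ss it was 4.04 where the counts gave 6.86. The CPM divided by the RPKM, here called the assumed length (in kb), was looked at after the values had been seen. For *Odf2l* it was 3.77 in the whole embryo and 4.23 at HH6, then 1.44 at 5-6ss, 2.41 at 8-9ss and 2.22 at 11-12ss. It is not a measured transcript length, since it also takes in any difference in how reads entered the counts and the RPKM. *Kif2a*, for example, had 4736 reads but an RPKM of 0 at 11-12ss. RPKM from Cuffdiff is summed over assembled transcripts, so a shorter transcript gives a larger RPKM for the same reads. Which transcripts of the locus were used was not tested, since the deposited values are per locus.

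Few loci shifted as far as *Odf2l* by this measure. Its assumed length at 5-6ss was 0.598 times that at 8-9ss after division by the median locus. Of 12707 loci with at least 10 reads in both libraries, 1.37% had a lower ratio (the middle 90% of loci ran from 0.804 to 1.26). Between HH6 and 5-6ss the ratio was 0.371, with 1.79% of 12466 loci lower, on only 25 reads at HH6. For *Plekhs1* the same ratios were 0.946 and 0.995, and for *Calb2* 1.13 and 1.12, all within the middle 90% of loci. From 8-9ss to 11-12ss *Calb2* lay at 1.24, above 95.6% of 13008 loci, so that its RPKM rose 7.64-fold at this step against 9.49-fold in counts.

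**Figure D3:**
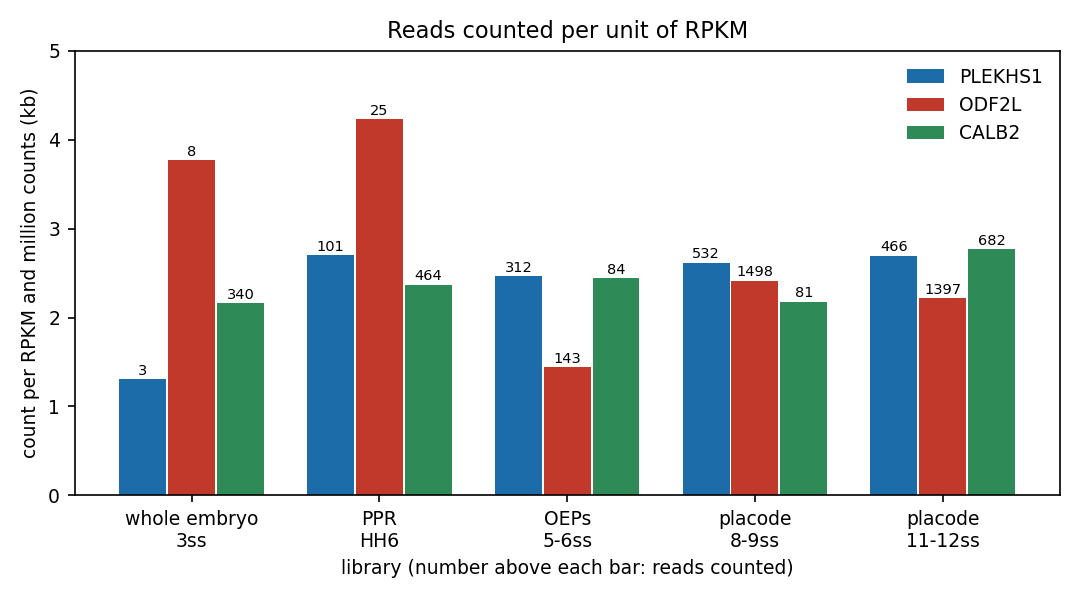
CPM divided by RPKM (kb) for the 3 genes in each library, with the number of reads above each bar; there are no replicates and no error bars. ODF2L falls from 4.23 at HH6 to 1.44 at 5-6ss and is 2.41 at 8-9ss, while CALB2 stays between 2.16 and 2.77 and PLEKHS1, apart from 3 reads in the whole embryo, between 2.46 and 2.70.

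The genes next to *Odf2l* in the chick genome were looked at after the values had been seen. In the RefSeq annotation of a later assembly (GRCg7b, used for gene order only), the nearest protein-coding genes are *Clca2* on one side, a member of the family named for chloride channel accessory proteins, and *Col24a1*, a fibrillar collagen gene, on the other. Both were called higher at the same step as *Odf2l*. *Clca2* had 41 reads in the whole embryo, 32 at HH6, 142 at 5-6ss, 2828 at 8-9ss and 3955 at 11-12ss, and rose 13.0-fold from 5-6ss to 8-9ss (11.0 to 15.5) and 1.58-fold at the next step (1.501 to 1.654). *Col24a1* had 815, 1511, 523, 2372 and 3068 reads in the same order, and rose 2.97-fold from 5-6ss to 8-9ss (2.70 to 3.27). *Znhit6*, the next gene beyond *Col24a1*, stayed at 1.24-fold (1.15 to 1.35) at that step. The assumed length of *Clca2* fell less than that of *Odf2l*, from 2.85 at HH6 to 1.94 at 5-6ss. That annotation shows no gene overlapping *Odf2l*, and whether reads of one gene were counted for the other was not tested.

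**Figure D4:**
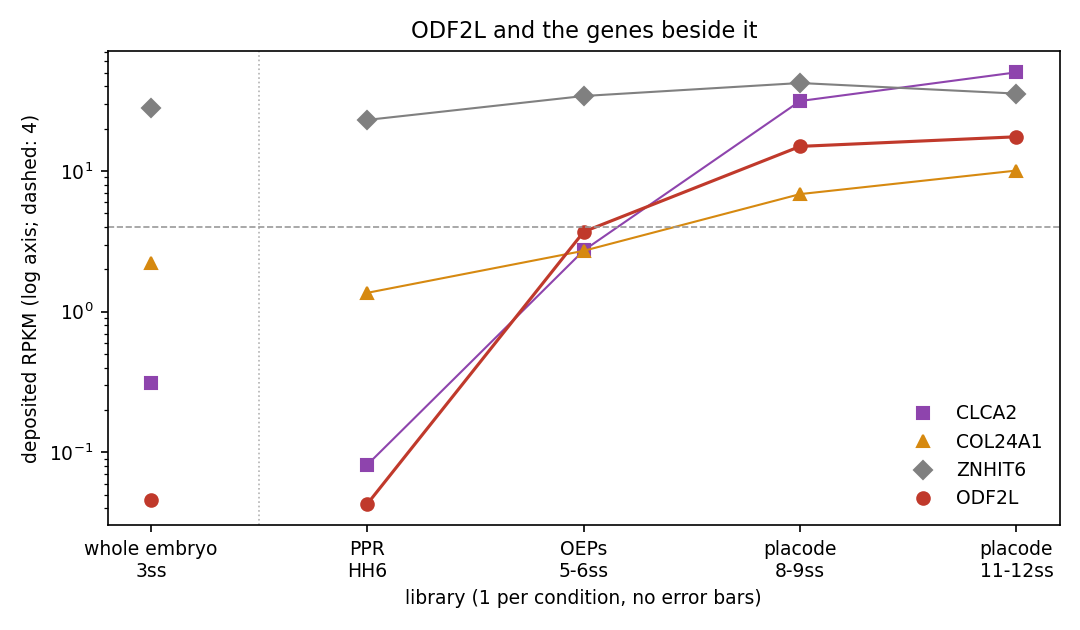
Deposited RPKM (log axis) of ODF2L and of 3 genes beside it in the 5 libraries, 1 library per condition and no error bars; the dashed line marks an RPKM of 4. ODF2L, CLCA2 and COL24A1 lie under 4 at 5-6ss (3.70, 2.73 and 2.71) and above it at 8-9ss (15.0, 31.4 and 6.85), whereas ZNHIT6 is between 23.1 and 42.2 in all libraries.

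To find loci with the same course, the profile of log2(normalized count + 10) over the 5 libraries, centred on its mean, was compared with that of each gene among 8548 other expressed loci with a symbol, by the root mean square difference. For *Plekhs1* the nearest were *Eya4* (0.49), a transcriptional coactivator gene of the Eya family, *Fa2h* (0.52), which encodes a fatty acid hydroxylase, and *Tfap2e* (0.56), a transcription factor gene. The median over all these loci was 2.38. Unlike *Plekhs1*, each of these nearest loci kept rising after 5-6ss. *Eya4* rose 12.3-fold at the first step (10.5 to 14.4), 1.74-fold at the second (1.57 to 1.92) and 1.63-fold at the third (1.52 to 1.74). *Fa2h* rose 5.81-fold (5.62 to 6.01), then 1.47-fold (1.43 to 1.51) and 1.14-fold (1.12 to 1.17), both not called. *Tfap2e* rose 9.81-fold (8.97 to 10.7), then 1.52-fold (1.43 to 1.62) and 1.41-fold (1.34 to 1.47, not called).

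Among the loci nearest to *Odf2l* were its neighbour *Clca2* (0.64) and *Ca12* (0.67), a carbonic anhydrase gene, against a median of 3.01 over all loci. *Ca12* had 1 read each in the whole embryo and at HH6, 110 at 5-6ss, 1986 at 8-9ss and 2618 at 11-12ss, and rose 11.8-fold from 5-6ss to 8-9ss (9.75 to 14.5). *Plekhs1* ranked 18 by nearness to *Odf2l*, with 1.22, whereas *Calb2* was 3.04 away from *Odf2l* and 2.64 from *Plekhs1*, farther than the median locus in both cases. Since the 3 genes were chosen by their values in these libraries, the distances between them are a description only.

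The loci nearest to *Calb2* were *Dpp6* (0.49), which encodes a partner of potassium channels, *Prrx1* (0.59), a homeobox gene of mesenchyme, and *Chrna4* (0.59), a subunit of the nicotinic acetylcholine receptor, against a median of 1.15. Each rose at the last step, *Dpp6* 3.92-fold (3.50 to 4.39), *Prrx1* 8.02-fold (6.32 to 10.3) and *Chrna4* 3.28-fold (2.82 to 3.84). In normalized counts each also had a whole embryo level above that at 8-9ss. These traits follow from the choice by likeness to *Calb2* in the same libraries and are a description only. In RPKM *Dpp6* was lower in the whole embryo (3.20) than at 8-9ss (3.84). *Prrx1* had 468 reads in the whole embryo, 170 at HH6, 52 at 5-6ss, 78 at 8-9ss and 555 at 11-12ss.

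*Prrx1* is in the list of paraxial and head mesoderm markers, of which 5 of 8 names had a locus. The summed CPM of the list was 366 in the whole embryo, 2.60 at HH6, 3.65 at 5-6ss, 5.59 at 8-9ss and 23.4 at 11-12ss. At the last step *Calb2* went from 1.95 to 19.0 CPM and *Prrx1* from 1.88 to 15.4. *Prrx1* had been picked for its likeness to *Calb2* and carried most of the rise of the list. The rise that *Prrx1* shares with *Calb2* is therefore no separate result. At this step *Twist1* also rose, from 1.28 to 4.14 CPM, and *Tcf15* from 2.22 to 3.61, whereas *Tbx6* went from 0.217 to 0.195. At 11-12ss *Prrx1* gave 15.4 of the summed 23.4 CPM, and the early mesoderm genes *Msgn1* and *Tbx6* stood at 0 and 7 reads. The list was then at 6.38% of its whole embryo level, most of which came from *Tbx6* (259 CPM) and *Msgn1* (60.5). Of the other markers, *Prrx1* was at 15.4 CPM against 10.1 in the whole embryo. *Twist1* was at 4.14 against 6.08, and *Tcf15* at 3.61 against 30.1. *Calb2* was at 258% of its whole embryo level. Between 8-9ss and 11-12ss blood and vessel markers went from 43.9 to 79.8 CPM, neural crest markers (3 of 7 names had a locus) from 129 to 180, and neural tube markers (3 of 8) from 4.46 to 6.28. Endoderm markers went from 6.53 to 5.81, notochord markers from 15.0 to 12.3, and surface and epibranchial ectoderm markers from 537 to 744. Single genes weigh on these sums. In the blood and vessel list *Lmo2* went from 26.8 to 44.4, *Kdr* from 11.8 to 23.1 and *Cdh5* from 5.38 to 11.0. In the neural crest list *Lmo4* went from 106 to 151, *Tfap2b* from 2.29 to 7.61 and *Snai2* from 20.9 to 21.2. In the surface list *Foxi2* went from 169 to 351 and *Tfap2a* from 222 to 264, while *Krt18*, *Krt7* and *Dlx5* fell. The part of other tissues in the *Calb2* value was not tested.

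**Figure D5:**
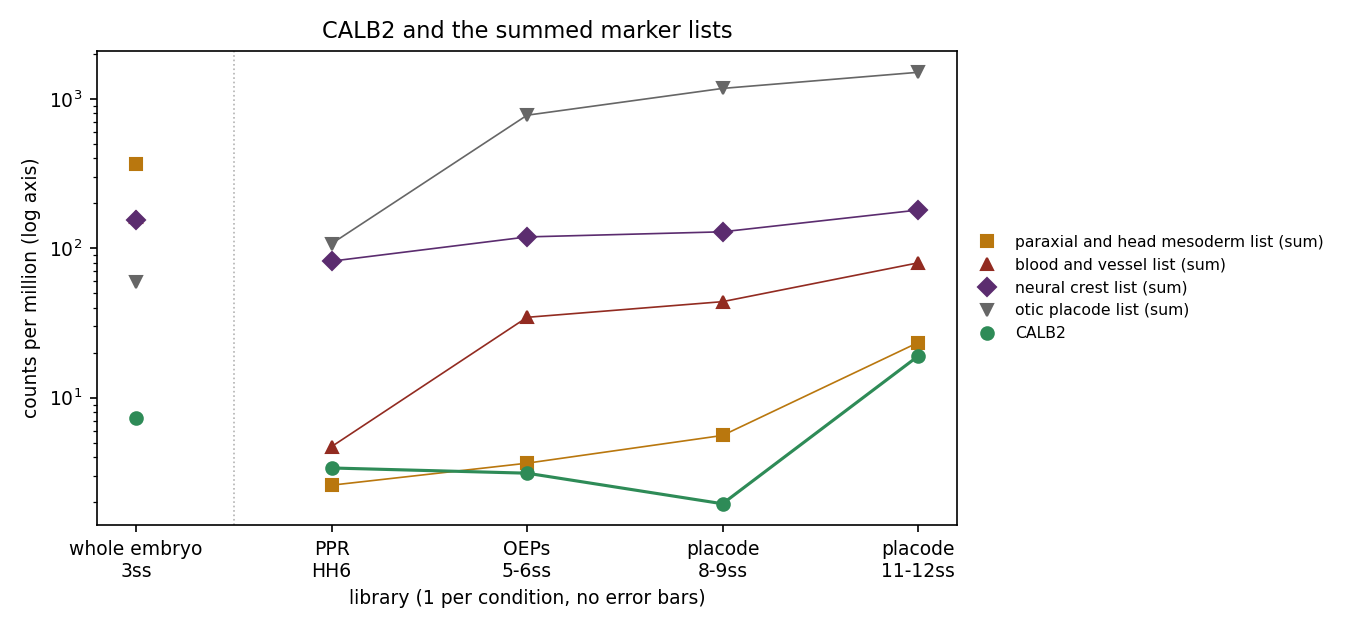
CPM (log axis) of CALB2 and of 4 summed marker lists in the 5 libraries, 1 library per condition and no error bars. From 8-9ss to 11-12ss CALB2 goes from 1.95 to 19.0 and the paraxial and head mesoderm list from 5.59 to 23.4, which in the whole embryo stand at 7.34 and 366 (there the blood and vessel point, 161, lies under the neural crest point, 155).

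The closest relatives of these genes behaved otherwise. *Odf2* (ODF2, XLOC_004968), whose product sits at the appendages of the mother centriole, had 3234 reads at 5-6ss, 4819 at 8-9ss and 4386 at 11-12ss, and its RPKM stayed between 25.8 and 31.0 in the 5 libraries. From 5-6ss to 8-9ss it was at 0.976-fold (0.933 to 1.02), where *Odf2l* rose. *Calb1*, which encodes calbindin, the other calcium buffer of this pair, had 8 reads in the whole embryo, 14 at HH6, 2 at 5-6ss, 0 at 8-9ss and 1 at 11-12ss. At 11-12ss, where *Calb2* had 682 reads, *Calb1* thus stood below the level of 3 reads. It did so at 8-9ss too, where 3 reads correspond to 3.53 normalized counts.

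Of 41 EF-hand calcium-binding genes besides *Calb2*, 33 had a locus. From HH6 to 5-6ss 18 of these loci were expressed and could be called, and 8 were called higher and 1 lower, where 18.0% and 18.9% of all expressed loci were. From 5-6ss to 8-9ss 0 of 16 were called in either direction (3.89% and 4.99% of all), and from 8-9ss to 11-12ss 1 of 17 each way (6.54% and 3.63%), so that the counts at both later steps are near the background. The median log2 fold changes of the list were 0.16, 0.21 and -0.02 at these steps, beside 0.00 for all loci that, like the list, averaged 10 or more normalized counts. *S100a10*, an annexin partner that has lost calcium binding, rose 5.95-fold at the first step (4.95 to 7.16) and fell 1.58-fold at the third (1.34 to 1.87). Counts and RPKM of *S100a10* did not match in size. It had 221 reads at HH6 and 252 at 5-6ss, where its RPKM was 75.2 and 619, a larger rise. *Efhd1*, a mitochondrial protein gene, rose 1.66-fold at the first step (1.52 to 1.82), and *Kcnip2*, a potassium channel partner, fell 20.2-fold (9.74 to 50.3), from 737 reads to 7. The calcium sensor gene *Cabp7* rose 1.51-fold at the third step (1.28 to 1.80), the step of *Calb2*.

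Of 36 centriole and basal body genes, 28 had a locus. From HH6 to 5-6ss all 28 were expressed, and 16 were called lower and 1 higher, against 18.9% and 18.0% of all expressed loci, with a median log2 fold change of -0.61 (-0.39 by RPKM). From 5-6ss to 8-9ss, where *Odf2l* rose, 0 of 23 expressed loci were called, near the background of 3.89% higher and 4.99% lower, and the median was 0.08 (-0.10 by RPKM, so that its sign depends on the measure). At the first step *Cep290*, a protein of the ciliary transition zone, fell 3.12-fold (2.87 to 3.39), *Ttbk2*, a kinase needed to start a cilium, 6.58-fold (5.05 to 8.74), *Cep120*, a centriole elongation factor, 2.25-fold (2.05 to 2.48) and *Ccp110*, a cap protein of the centriole, 1.78-fold (1.61 to 1.98). By RPKM each of these falls was smaller. *Cep290* went from 5.79 to 2.51, *Ttbk2* from 4.28 to 1.10, *Cep120* from 7.94 to 4.39 and *Ccp110* from 6.78 to 4.37. Relative to 5-6ss, *Ccp110* was then 1.57-fold higher in counts at 11-12ss (1.39 to 1.77).

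Of 31 genes named like *Plekhs1* for a pleckstrin homology domain, 23 had a locus. At the first step, that of *Plekhs1*, 1 of 16 expressed loci was called higher and 2 lower (18.0% and 18.9% of all expressed loci), with a median log2 fold change of 0.24. At the second step 1 of 15 was called lower (4.99% of all), and at the third 2 of 16 were called higher (6.54%), and with so few loci these counts show nothing particular to the family. *Plekha7*, a protein gene of adherens junctions, fell 1.90-fold at the first step (1.78 to 2.03), and *Plekhg3*, a guanine nucleotide exchange factor gene, fell 1.53-fold at the second (1.46 to 1.61). *Plekhg1*, of the same kind, rose 1.89-fold (1.785 to 2.001) and *Plekho1* 2.18-fold (1.91 to 2.49) at the third.

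Because calretinin marks neurons and hair cells of the ear, genes of both cell types were counted. Of 29 genes of neurogenesis 20 had a locus. From 8-9ss to 11-12ss, where *Calb2* rose, only 7 of them were expressed and could be called, and 1 was called higher and 1 lower (6.54% and 3.63% of all expressed loci), with a median log2 fold change of 0.03. *Isl1*, a homeobox gene of sensory neuroblasts, rose 2.04-fold (1.83 to 2.28), and the neurofilament gene *Nefm* fell 1.75-fold (1.55 to 1.98). One step earlier 4 of 7 expressed loci were called higher and 1 lower (3.89% and 4.99% of all). A locus can enter these 7 only through the library where it is high, which favours a call, so these counts are a description only. The loci called higher included the neurofilament genes *Nefl* (6.25-fold, 5.23 to 7.53) and *Nefm* (3.90-fold, 3.24 to 4.72). The Notch ligand gene *Dll1* fell 2.02-fold (1.83 to 2.22). The median at this earlier step was 0.47, and -0.18 when genes with few counts were kept.

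Of 20 hair cell genes 14 had a locus, but few were expressed. From HH6 to 5-6ss 2 of 2 expressed loci were called lower, where 18.9% of all expressed loci were. From 5-6ss to 8-9ss 2 of 2 expressed loci were called higher, and from 8-9ss to 11-12ss 2 of 3, where 3.89% and 6.54% of all expressed loci were. A locus that passes the expression level only where it is high is more likely to be called, so these few counts are a description only. The third locus at the last step, *Pcdh15*, was at 1.01-fold (0.885 to 1.14). *Ush1c*, which encodes harmonin of the hair bundle, rose 4.65-fold from 5-6ss to 8-9ss (3.64 to 6.02) and 2.55-fold from 8-9ss to 11-12ss (2.30 to 2.83). *Espn*, an actin bundling protein gene, fell 2.44-fold at the first step (2.07 to 2.89), rose 1.96-fold at the second (1.64 to 2.37) and 2.07-fold at the third (1.85 to 2.32). *Pcdh15*, a tip link cadherin gene, had risen 1.66-fold by 11-12ss relative to 5-6ss (1.40 to 1.96), and *Lhfpl5*, a subunit of the transduction complex, fell 1.78-fold at the first step (1.40 to 2.30). The median log2 fold change of the list was -0.61 at the first step (-0.15 by RPKM) and 0.15 at the second. At the last step it was 0.88, over 11 loci, beside 0.00 for all loci. When genes with few counts were kept, the medians at these steps were -0.30, -0.10 and 0.76. *Slc17a8*, with 0 reads at 8-9ss and 19 at 11-12ss, entered the 11 loci only through the library where it was high. These medians are therefore also a description only.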

How the data were processed

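The authors aligned reads with TopHat2 to the chicken genome (galGal4), assembled transcripts with Cufflinks together with the Ensembl and RefSeq annotation, and deposited, per merged locus, counts made with easyRNAseq without normalization and RPKM values made with Cuffdiff. Reads were single or paired, and which library had which was not given in the sources used here. From the deposited counts (18365 loci), size factors, fold changes (counts below 3 raised to 3) and exact intervals were computed with Python 3.11.15, numpy 2.4.6, pandas 2.3.3 and scipy 1.17.1. Fold changes use the size factors of the pair, levels those of all 5 libraries. With 1 library per condition no model has residual degrees of freedom, so counts were not tested with edgeR, DESeq2 or limma. The genes and lists were chosen with earlier results of these data known. Named besides the 3 genes were, per list, up to 4 genes called at most steps, then by change from 5-6ss to 11-12ss, and per gene the 3 nearest profiles. Some loci that these rules name are not reported here. Neighbouring genes, single tissue markers and the ratio of CPM to RPKM were chosen after their values were seen. As alternatives, scaling was by TMM (edgeR 4.0.16), by total counts or by size factors of all libraries, besides RPKM, thinned counts, and other thresholds and pseudocounts. Intervals and calls were tested on data simulated with counting error alone. There every locus passed the RPKM level, and changes were placed only in loci with higher counts than these 3 genes. The simulation is therefore no check of the calls of the 3 genes. Plots used matplotlib 3.10.9.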

Additional observations from a re-analysis of the deposited data

How the results depend on the processing

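No paired analysis was possible because each condition has 1 library, and for the same reason no library could be left out. Under size factors over all 5 libraries, TMM, total counts and thinned counts, each fold change of the 3 genes stayed within its counting interval. With the deposited RPKM 6 of 24 left it. These were those of *Odf2l* at 5-6ss against HH6 (85.7-fold), at 8-9ss against 5-6ss (4.04-fold), at 11-12ss against 8-9ss (1.17-fold) and against 5-6ss (4.73-fold), and at 5-6ss against the whole embryo (80.8-fold), and that of *Calb2* at 11-12ss against the whole embryo (2.02-fold), without a change of call. With no expression threshold, the genes called higher were 2 at 5-6ss against HH6 and 2 at 5-6ss and 1 at HH6 against the whole embryo. Those called lower were 1 at 8-9ss against 5-6ss and 1 each at HH6, 5-6ss and 8-9ss against the whole embryo, in each case *Calb2*. The share of all loci called without a threshold was not computed, so these counts have no background beside them and nothing is read from them. A fold change over 2, or an interval wholly past 1.5-fold, changed no count of the 3 genes called. Of the list medians recomputed, 16 moved by more than 0.1 on the log2 scale and 64 did not. The nearest profiles were less stable. With a pseudocount of 1, 1 of the first 3 was kept for *Plekhs1*, 1 for *Odf2l* and 3 for *Calb2*, and with RPKM 0, 0 and 1. Depth limits *Plekhs1* and *Odf2l* in the whole embryo, with 3 and 8 reads.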

Other observations

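Of the genes near *Plekhs1* and *Calb2*, those given here were not called higher at the step at which *Plekhs1* or *Calb2* rose. Near *Plekhs1* lie *Dclre1a*, a DNA repair gene, which stayed at 0.798-fold from HH6 to 5-6ss (0.736 to 0.865), and *Nhlrc2*, which fell 2.66-fold. RefSeq places 2 long non-coding RNAs over *Plekhs1*, and since the sources used here do not say that reads were counted by strand, their reads and those of *Plekhs1* cannot be told apart. Beside *Calb2*, *Got2*, which encodes the mitochondrial aspartate aminotransferase, was at 0.811-fold from 8-9ss to 11-12ss (0.793 to 0.830), and *Slc38a7*, a glutamine transporter gene, at 1.09-fold (0.992 to 1.20).

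With a pseudocount of 1, which gives more weight to low counts, the locus nearest to *Plekhs1* was *Npffr2*, a neuropeptide receptor gene (root mean square difference 0.70), and the locus nearest to *Odf2l* was *Prdm12* (0.66), a zinc finger gene. *Dpp6* was nearest to *Calb2* at both pseudocounts (0.49 and 0.52).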
